A study of Mus musculus with 4 samples.

Results

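Expression of 9 genes of the TGF-beta and activin system, Tgfb1, Tgfb2, Tgfb3, Tgfbr1, Tgfbr2, Tgfbr3, Inhba, Inhbb and Fst, was examined in the developing mouse molar. They were taken by symbol from the 32285 genes of the deposited tables, and each was found. The samples were maxillary and mandibular molar tooth organs of wild-type C57BL/6J mice, labelled WTB6, with no treatment or altered allele, collected from E15.5 embryos (E15 in the sample labels) and from pups of the first postnatal days, labelled P1 and described in the protocol as P0/P1. Each library pooled 6 tooth organs, and there was 1 library for each stage and jaw, 4 in all. No test over the libraries was run, and every interval covers counting error only. Single-cell RNA sequencing gave UMI counts, in which a UMI (unique molecular identifier) marks 1 captured transcript, and a molar stays surrounded by oral epithelium, bone, muscle and vessels when it is dissected.

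TGF-beta and activin are secreted dimers of the same superfamily. Their precursors are cut and, for the TGF-betas, held in a latent form by matrix proteins until an integrin or protease frees them, and they signal through paired type I and type II receptor kinases that phosphorylate Smad2 and Smad3. In the tooth, TGF-beta signalling is known for its part in odontoblast differentiation and dentin formation, activin from the early dental mesenchyme is needed for incisors and mandibular molars to pass the bud stage while maxillary molars form without it, and follistatin, which binds activin and blocks it, is known as a brake on ameloblast differentiation.

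The genes fall into ligands (Tgfb1, Tgfb2, Tgfb3), receptors (Tgfbr1, the type I kinase; Tgfbr2, the type II kinase; Tgfbr3, the co-receptor betaglycan, which presents TGF-beta to Tgfbr2 and also binds inhibin), activin subunits (Inhba and Inhbb, encoding the beta A and beta B chains) and the activin antagonist Fst. On GRCm38, Tgfb1 (ENSMUSG00000002603) lies at chr7:25687002-25705077 on the plus strand, and Tgfb2 (ENSMUSG00000039239) at chr1:186622792-186705989 on the minus strand. Tgfb3 (ENSMUSG00000021253) lies at chr12:86056745-86079041 on the minus strand. The receptors lie at chr4:47353222-47414931, plus strand (Tgfbr1, ENSMUSG00000007613), chr9:116084293-116175360, minus strand (Tgfbr2, ENSMUSG00000032440), and chr5:107106570-107289629, minus strand (Tgfbr3, ENSMUSG00000029287). Inhba (ENSMUSG00000041324) is at chr13:16011851-16031621 on the plus strand, Inhbb (ENSMUSG00000037035) at chr1:119415465-119422248 on the minus strand and Fst (ENSMUSG00000021765) at chr13:114452290-114458951 on the minus strand. Exons of Gm43422 overlap those of Tgfbr3 on the same strand, so reads there could not be told apart with certainty. Gm29491 overlaps Tgfb2, Gm37804 and Gm48008 overlap Tgfb3, and Gm47040 overlaps Fst, in each case on the opposite strand.

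Promoters are shown for 4 of the genes with the stage and class differences described below, Tgfb1, Tgfb2, Tgfbr2 and Inhba. Each sequence is the 250 bases before the annotated start, read 5′ to 3′ on the gene's own strand from the RefSeq annotation of GRCm38.p6, at chr7:25686752-25687001 (plus), chr1:186705990-186706239 (minus), chr9:116175364-116175613 (minus) and chr13:16011601-16011850 (plus). Capitals mark the Smad-binding letters CAGAC or GTCTG.
Tgfb1: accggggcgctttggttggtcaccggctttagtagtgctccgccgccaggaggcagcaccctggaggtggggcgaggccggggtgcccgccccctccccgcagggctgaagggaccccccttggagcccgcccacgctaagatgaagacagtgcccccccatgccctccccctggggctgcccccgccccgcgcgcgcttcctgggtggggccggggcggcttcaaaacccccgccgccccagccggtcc
Tgfb2: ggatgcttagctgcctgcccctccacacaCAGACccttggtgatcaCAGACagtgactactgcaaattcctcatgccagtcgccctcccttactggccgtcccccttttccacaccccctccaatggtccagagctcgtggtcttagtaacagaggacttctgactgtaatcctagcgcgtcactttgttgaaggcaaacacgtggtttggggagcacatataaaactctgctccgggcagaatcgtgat
Tgfbr2: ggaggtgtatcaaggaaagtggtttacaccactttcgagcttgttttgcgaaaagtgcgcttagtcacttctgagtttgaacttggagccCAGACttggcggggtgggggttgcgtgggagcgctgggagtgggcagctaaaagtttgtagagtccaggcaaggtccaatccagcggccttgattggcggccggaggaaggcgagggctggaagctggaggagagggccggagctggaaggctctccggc
Inhba: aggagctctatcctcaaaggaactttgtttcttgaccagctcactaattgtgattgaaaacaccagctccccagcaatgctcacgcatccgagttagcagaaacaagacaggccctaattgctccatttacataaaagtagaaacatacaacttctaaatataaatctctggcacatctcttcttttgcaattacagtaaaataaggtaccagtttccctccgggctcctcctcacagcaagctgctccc
The Smad-binding letters occurred 2 times before Tgfb2 and 1 time before Tgfbr2, and not in the windows of Tgfb1 and Inhba. They occurred in 42.2% of the 32851 promoters of this length, so a match is common and is only a description of the letters. The Tgfb1 window was 75.2% G and C and held the GC box (GGGCGG or CCGCCC) 5 times, a motif that 32.7% of all promoters held. The windows of Tgfb2, Tgfbr2 and Inhba were 53.6%, 58.4% and 43.2% G and C and held no GC box. The AP-1 letters TGACTCA or TGAGTCA, in 4.46% of all promoters, were in none of the 4 windows. Of the 9 genes, 6 had a promoter entry, and Tgfb3, Tgfbr3 and Fst had none.

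The tables held 10885 barcodes for the E15.5 maxillary, 7947 for the E15.5 mandibular, 18707 for the P1 maxillary and 19401 for the P1 mandibular library, with 109723360, 86659227, 128812956 and 139873101 UMIs. Barcodes with at least 1000 UMIs were used. The P1 libraries had 7131 barcodes in common, 38.1% of the maxillary and 36.8% of the mandibular ones, whereas other pairs of libraries shared between 28 and 70. Shared barcodes were deeper in the maxillary library (median 12088 UMIs) than in the mandibular one (2870). Among those not shared the order was turned, with medians of 2318 in the maxillary and 8617.5 UMIs in the mandibular one. Shared barcodes were dropped from the mandibular library, 6690 of them above the minimum, and were kept in the maxillary library. From which of the P1 libraries, and so from which jaw, a cell with a shared barcode came cannot be told apart from the counts. Several stage and class results are therefore also given without these barcodes. Where such cells prevail, agreement of the P1 jaws may not be that of separate samples. After the drop 10073, 6911, 17040 and 10120 cells were left, with medians of 9596, 11234, 4019 and 10390 UMIs.

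Cells of each library were clustered without the 9 genes and without a list of 38 other genes of the pathway, and clusters were named by marker genes, hence "-like". Epithelial cells numbered 1000 and 143 at E15.5 (maxillary, then mandibular) and 2582 and 1967 at P1. The E15.5 mandibular epithelium was a single cluster led by Krt13, Krt5, Krt14 and Krt15 with no dental epithelium-like cluster, so each stage comparison in the mandibular epithelium rests on that cluster. Mesenchymal cells numbered 5682, 3180, 9796 and 5245, of which 342, 106, 2709 and 1956 were dental papilla-like, the core that gives rise to odontoblasts. Only the P1 libraries held ameloblast lineage-like cells, the enamel-forming epithelium (250 maxillary and 768 mandibular). A P1 mesenchymal cluster of 381 and 387 cells had Dmp1 and Phex among its leading genes, which odontoblasts express. Its leading genes also held Bglap, Bglap2 and Ifitm5 of the osteoblast list. Of the mesenchymal marker lists the odontoblast one (Dspp, Dmp1, Phex, Smpd3 and Wnt10a) scored highest there, with each of its genes detected. The cluster is called the Dmp1- and Phex-led mesenchyme. In the P1 maxillary library, shared barcodes were 96.1% of that cluster, 96.8% of the papilla-like, 94.8% of the ameloblast-like and 71.4% of the dental epithelium-like cells, against 8.99% of the chondrocyte-like and 2.7% of the neuron-like cells. That library also held 462 olfactory or nasal-like cells, whose markers Cyp2g1, Cyp2a5 and Sec14l3 were at 0 in the P1 mandibular library. Summed over all cells, that list of 5 markers, led by Cbr2, stood at 75.9 UMIs per 1000000 UMIs in the P1 maxillary library and at 8.41, 2.58 and 12.5 in the E15.5 maxillary, E15.5 mandibular and P1 mandibular libraries, and its part in the results was not tested. Ameloblast markers were low at E15.5, with a list sum of 6.45 per 1000000 UMIs in the maxillary library, where Mmp20 was at 0. In the E15.5 mandibular library the sum was 13, led by Amelx at 8.03. At P1 the sums were 1125 (maxillary) and 4500 (mandibular). The level of a gene is given as its UMIs per 1000000 UMIs (CPM) of a class, with a 95% interval in brackets.

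Tgfb1, the ligand known from dentin matrix and immune cells, was higher at P1 than at E15.5 in the mesenchyme of both jaws. Its level was 12.8 CPM in the E15.5 maxillary, 13.6 in the E15.5 mandibular, 64.8 in the P1 maxillary and 65.1 in the P1 mandibular mesenchyme. The P1 libraries were both high and the E15.5 libraries both low, with no overlap of their intervals. The log2 ratio of P1 over E15.5 was 2.34 [2.23, 2.45] in the maxilla, a 5.06-fold difference, and 2.26 [2.14, 2.38] in the mandible, 4.78-fold. Without the shared barcodes the maxillary ratio was 0.14, while the mandibular ratio, from which those barcodes had already been dropped, stayed at 2.26. Most Tgfb1 UMIs of the P1 mesenchyme lay in a few classes. The papilla-like cells, 27.7% of the P1 maxillary mesenchyme, held 48.6% of its Tgfb1 UMIs, and the Dmp1- and Phex-led cells, 3.89% of it, held 34.6%. In the P1 mandibular mesenchyme the papilla-like cells (37.3%) held 43% of them and the Dmp1- and Phex-led cells (7.38%) held 38.9%. Within papilla-like cells alone the difference between the stages was smaller, with 24.7 and 36.9 CPM at E15.5 (maxillary, mandibular) and 67 and 65.4 at P1, or log2 ratios of 1.44 [1.11, 1.78] and 0.82 [0.42, 1.26]. The maxillary ratio was 1.23 without shared barcodes. How much of the difference in the whole mesenchyme came from its make-up was not tested.

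Among cell classes, Tgfb1 was most abundant in the Dmp1- and Phex-led mesenchyme at P1, with 232 [222, 243] CPM in the maxilla and 237 [226, 249] in the mandible. Macrophage-like cells followed at P1 with 211 [192, 230] and 206 [189, 224], a level whose interval met that of the Dmp1- and Phex-led cells in the maxilla but not in the mandible. At E15.5 the leading classes were the leukocytes other than macrophages (165 and 169 CPM) and the macrophage-like cells (139 and 163), whose intervals overlapped in both jaws, ahead of endothelium-like cells (107 and 109). Erythroid-like cells, which should not make Tgfb1 and stand here for free RNA, were at 1.18, 0.741, 1.03 and 6.24 CPM in the E15.5 maxillary, E15.5 mandibular, P1 maxillary and P1 mandibular libraries. Of the Dmp1- and Phex-led cells 92.1% and 88.4% had at least 1 Tgfb1 UMI, at medians of 19711 and 17647 UMIs, against 53% and 53.6% of P1 papilla-like cells, at medians of 12801 and 14345.5. The share of P1 erythroid-like cells was 0.269% and 1.99%, at medians of 1932 and 6804 UMIs. Cells were then thinned to 2000 UMIs each, and those with fewer were left out, here and in later shares at this depth. This left 512 of the 1114 P1 maxillary erythroid-like cells. The shares were 36% and 36.3% of the Dmp1- and Phex-led cells, 12.4% and 11.9% of the papilla-like cells and 0% and 0.703% of the erythroid-like cells. The Dmp1- and Phex-led, papilla-like and erythroid-like cells kept their order at this depth, but not all other classes did. In the P1 maxilla, leukocytes other than macrophages were above endothelium-like cells by CPM (145 against 128) but below by share (17.2% against 20.4%). In the E15.5 mandible these leukocytes fell just below the macrophage-like cells (24.3% against 25%). The intervals of these shares overlapped.

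**Figure D1:**
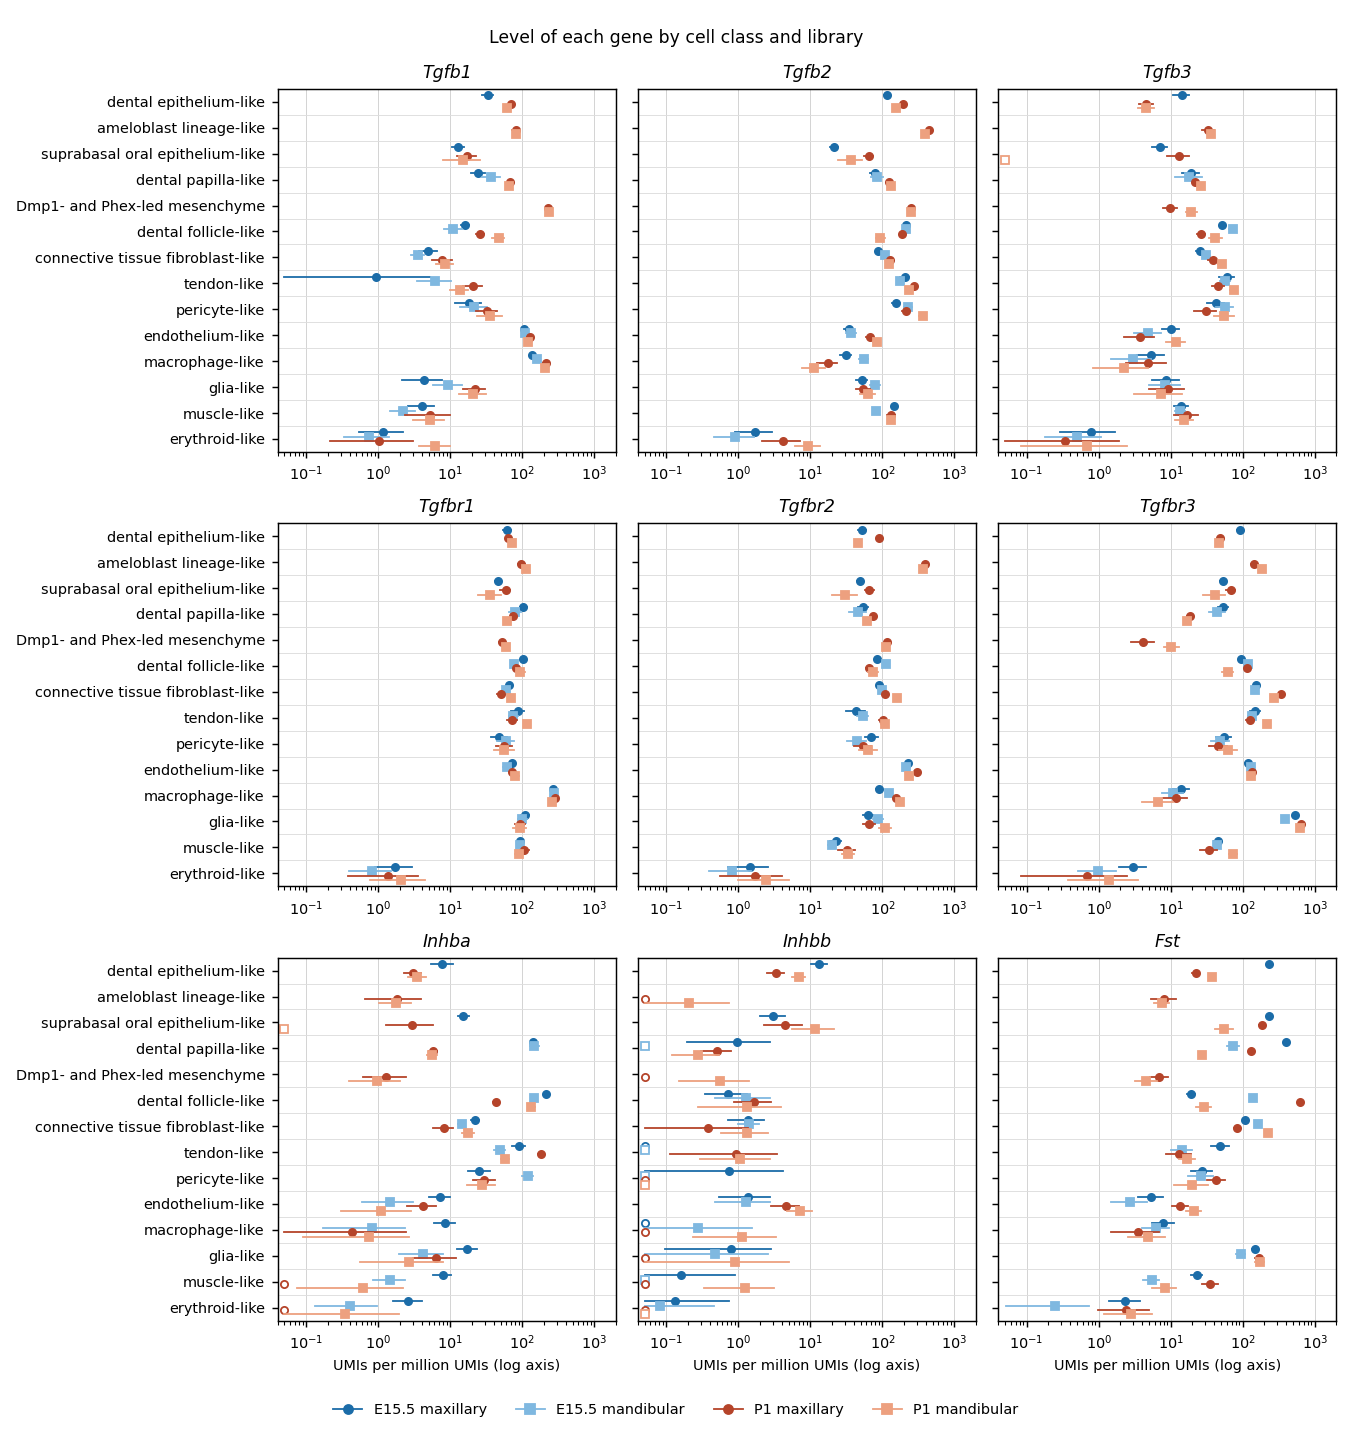
Level of each of the 9 genes (CPM, log axis) in 14 cell classes, with points for the 4 libraries, lines for the 95% counting interval and open points at the left edge for a level of 0. Tgfb1 reached 232 and 237 in the Dmp1- and Phex-led mesenchyme, Tgfbr3 stood highest in glia-like cells (390 to 650), and Inhba was at 143 and 148 in E15.5 papilla-like cells and at 5.78 and 5.65 at P1.

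Tgfb2, a ligand with known roles in skeletal and heart development, was higher at P1 in the epithelium. Its level there was 48.9 CPM in the E15.5 maxillary, 70.4 in the E15.5 mandibular, 204 in the P1 maxillary and 232 in the P1 mandibular library. Both P1 values lay above both E15.5 values, by a log2 ratio of 2.06 [1.95, 2.18] in the maxilla and 1.72 [1.51, 1.94] in the mandible. The maxillary ratio was 1.18 without shared barcodes. In the mesenchyme Tgfb2 was 139, 118, 152 and 149 CPM in the same order, and its stage ratios of 0.14 and 0.34 were small. Epithelium was thus below mesenchyme at E15.5 (log2 ratio -1.50 and -0.74) and above it at P1 (0.42 and 0.64), although without shared barcodes the P1 maxillary ratio was -0.53. At P1 the ameloblast-like cells had the highest Tgfb2 of all classes, with 439 [417, 462] CPM in the maxilla and 385 [373, 398] in the mandible, where the pericyte-like cells with 360 [318, 405] overlapped them. They held 27.5% of the epithelium's Tgfb2 UMIs in the maxilla and 60.8% in the mandible, as 9.68% and 39% of its cells. In dental epithelium-like cells of the maxilla, the only such class at both stages, Tgfb2 was 114 CPM at E15.5 and 191 at P1, a log2 ratio of 0.74 [0.60, 0.88], and 140 at P1 without shared barcodes. The make-up of the maxillary epithelium differed between the stages. Suprabasal oral epithelium-like cells, with 21.3 CPM of Tgfb2 at E15.5, made up 54.3% of it at that stage but 11.9% at P1, and the part of this in the epithelial stage ratios was not tested. Dental follicle-like cells, which form the periodontium, were among the highest at E15.5 (209 and 212 CPM), together with tendon-like (205 and 178) and pericyte-like cells (155 and 228).

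Tgfb3, the ligand best known for palatal fusion, was higher in the whole mesenchyme than in the whole epithelium of each library. Epithelial levels were 9.28 and 4.04 CPM at E15.5 and 9.35 and 16.4 at P1 (maxillary, mandibular). Mesenchymal levels were 43.5 and 37.7 CPM at E15.5 and 27.2 and 32.9 at P1, above the epithelium in each library. The log2 ratio of epithelium over mesenchyme was -2.23 [-2.48, -1.99] and -3.23 [-4.23, -2.38] at E15.5 and -1.54 and -1.01 [-1.16, -0.86] at P1, with -2.57 in the P1 maxilla without shared barcodes. Within the P1 epithelium the ameloblast-like cells stood apart with 33.4 [27.5, 40.3] and 36.4 [32.7, 40.4] CPM, against 4.5 and 4.56 in dental epithelium-like cells. Their level was slightly above that of the whole mesenchyme of the same library (27.2 and 32.9). In the mandible their interval held the mesenchymal value. Tendon-like cells had 59.8, 56.7, 45.8 and 75.3 CPM in the E15.5 maxillary, E15.5 mandibular, P1 maxillary and P1 mandibular libraries and were the leading class in the first and the last of them. Chondrocyte-like cells led in the P1 maxillary library with 62.5 CPM, and follicle-like cells in the E15.5 mandibular library with 72.2. In each library the interval of the leading class overlapped that of the next, so the order at the top is not settled.

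The type I receptor Tgfbr1 varied by less than 2-fold over the epithelium and mesenchyme of the 4 libraries. It was 52.3, 58.7, 66.4 and 85.6 CPM in the epithelium and 85.5, 64.9, 70.1 and 70.3 in the mesenchyme of the E15.5 maxillary, E15.5 mandibular, P1 maxillary and P1 mandibular libraries. Its stage log2 ratios were -0.29 and 0.12 in the mesenchyme and 0.34 and 0.54 in the epithelium, all under 2-fold. Macrophage-like cells led in each of the 4 libraries, with 266 [250, 281], 279 [262, 297], 289 [268, 312] and 262 [243, 283] CPM. The neuron-like cells of the P1 maxillary library came next there with 233 [219, 247].

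Tgfbr2, the receptor that binds TGF-beta and starts the signal, was higher at P1 than at E15.5 in the epithelium and near equal in the mesenchyme. Epithelial levels were 48.8, 30.1, 121 and 163 CPM in the E15.5 maxillary, E15.5 mandibular, P1 maxillary and P1 mandibular libraries. The 2 P1 values were the higher ones, with log2 ratios of 1.31 [1.19, 1.42] and 2.44 [2.12, 2.77]. Leaving out the shared barcodes brought the maxillary ratio to 0.36, under 2-fold. In the mesenchyme the levels were 76.7, 86.7, 77.9 and 90.5 CPM, with stage ratios of 0.02 and 0.06. Ameloblast-like cells had 384 [363, 405] CPM in the maxilla and 365 [353, 377] in the mandible and led all classes at P1, ahead of the endothelium-like cells with 298 [283, 314] and 231 [216, 247]. Endothelium-like cells led at E15.5 with 228 and 214 CPM. Ameloblast-like cells held 40.6% of the P1 epithelium's Tgfbr2 UMIs in the maxilla and 82.2% in the mandible. At least 1 Tgfbr2 UMI was found in 96% and 93.6% of them, at medians of 13480 and 12730.5 UMIs, and in 0.449% and 1.32% of P1 erythroid-like cells. At 2000 UMIs per cell the shares were 52.5% and 52.6% of ameloblast-like and 0.781% and 0.234% of erythroid-like cells. In maxillary dental epithelium-like cells Tgfbr2 was 51.6 CPM at E15.5 and 89 at P1, a log2 ratio of 0.78 [0.58, 0.99], and 66.4 at P1 without shared barcodes.

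Tgfbr3 was most abundant in glia-like cells of the nerves, which led in each library with 540, 390, 650 and 620 CPM, far above the second class by interval. Connective tissue fibroblast-like cells followed among the named classes with 153, 150, 342 and 274 CPM. At E15.5 their intervals overlapped those of the tendon-like cells (148 CPM in the maxilla and 134 in the mandible). Ameloblast-like cells were among the higher classes at P1, with 144 [131, 157] CPM in the maxilla and 185 [176, 194] in the mandible. Macrophage-like cells were low, at 13.8, 10.6, 11.7 and 6.74. The mesenchyme went from 129 and 124 CPM at E15.5 to 68.7 and 82.9 at P1, log2 ratios of -0.90 (-0.11 without shared barcodes) and -0.58 that are under 2-fold. The papilla-like cells went from 53.8 and 44.5 CPM to 18.3 and 16.8, log2 ratios of -1.56 and -1.40, each past 2-fold. Without shared barcodes the maxillary ratio was -0.63, under 2-fold.

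Inhba, whose product forms activin A, was lower at P1 in the mesenchyme of both jaws. The mesenchyme had 98.9 CPM in the E15.5 maxillary, 44.3 in the E15.5 mandibular, 23.4 in the P1 maxillary and 18.1 in the P1 mandibular library. Both P1 values lay below both E15.5 values, with log2 ratios of -2.08 [-2.15, -2.00] and -1.29 [-1.40, -1.19]. Without shared barcodes the maxillary ratio was -0.75. Papilla-like cells made up 6.02% and 3.33% of the mesenchyme at E15.5 (maxillary, mandibular) and 27.7% and 37.3% at P1. The part of this make-up in the Inhba ratios of the whole mesenchyme was not tested. The largest difference was in the papilla-like cells, which had 143 [130, 157] and 148 [128, 170] CPM at E15.5 and 5.78 [5.04, 6.61] and 5.65 [4.82, 6.59] at P1. The level was 24.8-fold lower at P1 in the maxilla (log2 ratio -4.63 [-4.87, -4.39]) and 26.1-fold lower in the mandible (-4.71 [-5.02, -4.40]). With the 88 P1 maxillary papilla-like cells whose barcodes were not shared, the log2 ratio was -3.21. At least 1 Inhba UMI was found in 45.6% and 43.4% of E15.5 papilla-like cells (medians of 8709 and 11444.5 UMIs) and in 5.76% and 4.09% of those at P1. At 2000 UMIs per cell the shares were 20.5% and 15.2% at E15.5 and 1.13% and 0.781% at P1. Erythroid-like cells, at medians of 6114, 7379, 1932 and 6804 UMIs, had shares of 0.792%, 0.3%, 0% and 0.221% in the 4 libraries. The stage difference of Inhba was not alike in the other mesenchymal classes. Follicle-like cells had 211 and 148 CPM at E15.5 and 43.6 and 133 at P1, and tendon-like cells 89.7 and 48.9 at E15.5 and 183 and 57.5 at P1. The epithelium was low, with 12.8, 11.4, 3.19 and 2.81 CPM.

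Inhbb, the beta B subunit of activin B, was low in each library. It was 7.49, 7.7, 3.12 and 4.94 CPM in the epithelium and 1.49, 1.97, 0.881 and 0.738 in the mesenchyme of the E15.5 maxillary, E15.5 mandibular, P1 maxillary and P1 mandibular libraries. The epithelium was the higher compartment in each library, but the gene stayed under the 10 CPM that the comparisons ask for. The highest class at E15.5 was the maxillary epithelium that took no other name, with 15 [10.2, 21.3] CPM, whose interval overlapped that of the dental epithelium-like cells with 13.3 [10.1, 17.2]. Dental epithelium-like cells had 3.28 CPM in the maxilla and 6.88 in the mandible at P1. Endothelium-like cells had 4.56 [2.86, 6.91] and 7.17 [4.69, 10.5] CPM at P1. The highest P1 values were 5.09 [2.44, 9.36] in the maxillary epithelium with no other name and 11.6 [5.57, 21.4] in mandibular suprabasal oral epithelium-like cells. Each rests on 10 UMIs, and their intervals overlapped those of the endothelium-like and dental epithelium-like cells of the same library.

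Fst, which encodes follistatin, was lower at P1 in the epithelium and differed between the jaws in the mesenchyme. In the epithelium it was 221 CPM in the E15.5 maxillary, 99.4 in the E15.5 mandibular, 37.6 in the P1 maxillary and 31.4 in the P1 mandibular library. The E15.5 epithelium was the higher in both jaws, with log2 ratios of P1 over E15.5 of -2.56 [-2.66, -2.45] and -1.66 [-1.86, -1.46]. The maxillary ratio was -1.78 without shared barcodes. Maxillary dental epithelium-like cells went from 233 CPM to 22.1, a 10.5-fold lower level (log2 ratio -3.40 [-3.57, -3.23]), and 35.5 at P1 without shared barcodes. The mesenchyme had 78.6, 116, 156 and 82.4 CPM, so that the maxilla was the lower jaw at E15.5 and the higher one at P1. The P1 maxillary value rests in part on 1 follicle-like cluster of 288 cells led by Dab1, Tfap2b and Tnr, with 1463 CPM of Fst, at least 1 UMI in 97.2% of its cells and shared barcodes for 94.8% of them. Without that cluster the P1 maxillary mesenchyme had 103 CPM and the stage log2 ratio was 0.38 in place of 0.99, and without all shared barcodes it was -0.07. Without all shared barcodes the maxilla was also slightly the lower jaw at P1. The papilla-like cells had 396 [375, 419] CPM in the E15.5 maxillary, 73.9 [60, 90] in the E15.5 mandibular, 131 [127, 135] in the P1 maxillary and 27 [25.2, 29] in the P1 mandibular library. Both maxillary values were above the mandibular value of the same stage, by 5.37-fold at E15.5 and 4.84-fold at P1, and both P1 values were below the E15.5 value of the same jaw (log2 ratios -1.60 and -1.45 [-1.76, -1.13]). The stage difference in papilla-like cells depended on the settings. At a clustering resolution of 2.0 the maxillary ratio was 0.05, with cells thinned to 1000 UMIs the mandibular ratio was -0.15, and Fst was then no longer past 2-fold. The P1 difference between the jaws rests on cells whose jaw of origin is in doubt, as 96.8% of the P1 maxillary papilla-like cells carried barcodes that the mandibular library also held. The 88 without such barcodes had 61.8 CPM. Follicle-like cells had 19 and 140 CPM at E15.5 and 633 and 28.9 at P1 (maxillary, mandibular), and were the leading class of the P1 maxillary library, where they had 104 CPM without shared barcodes. Other classes with much Fst were the suprabasal oral epithelium-like (234, 183 and 55.8 CPM in the E15.5 maxillary, P1 maxillary and P1 mandibular libraries), the glia-like (150, 94.2, 166 and 173) and the fibroblast-like cells (107, 162, 83.3 and 224). The P1 mandibular suprabasal value came from 4 of 62 cells. Erythroid-like cells had 2.35, 0.247, 2.41 and 2.77 CPM.

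**Figure D2:**
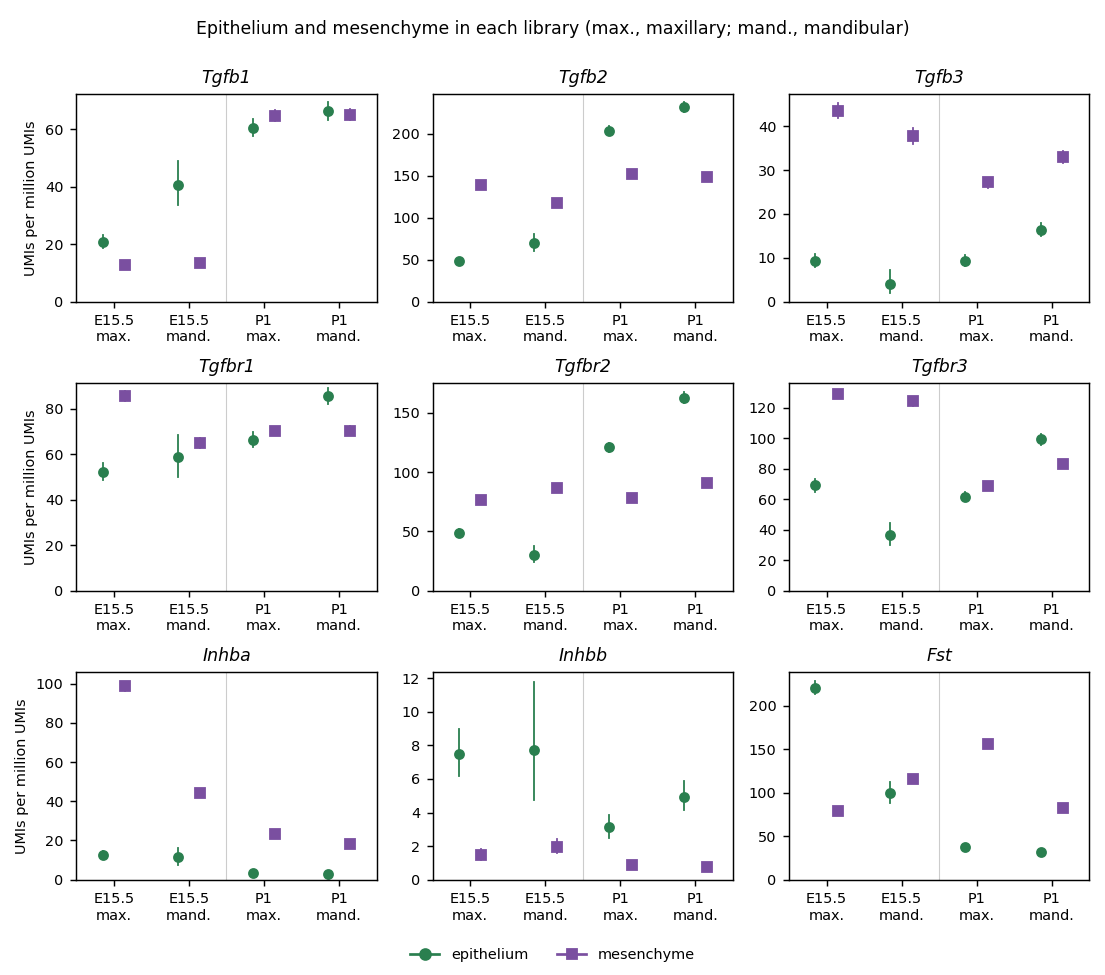
Level of the 9 genes (CPM, linear axis from 0) in the epithelium (circles) and the mesenchyme (squares) of each library, with 95% counting intervals. Tgfb3 and Inhba stood higher in the mesenchyme in all 4 libraries, whereas epithelial Tgfb2 went from 48.9 and 70.4 at E15.5 to 204 and 232 at P1.

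Set against all genes, a gene counted as past 2-fold between the stages when its level differed at least 2-fold in the same direction in both jaws, with at least 10 CPM in the higher library of each pair. In the mesenchyme 6.52% of 9730 genes tested did so (4.69% higher and 1.83% lower at P1). Of the 9 genes, 8 passed the minimum level, and 2 of them were past 2-fold: Tgfb1, higher, and Inhba, lower. The median log2 ratio of the 8 was -0.13 in the maxilla and -0.07 in the mandible, beside -0.02 and -0.03 over all genes tested. In the epithelium 8.44% of 9737 genes were past 2-fold (5.12% higher and 3.32% lower at P1), and of the 7 genes of the set that passed the minimum Tgfb2 and Tgfbr2 were higher and Inhba and Fst lower at P1. Their median log2 ratios were 0.34 and 0.70, beside 0.04 and -0.00 over all genes tested. In papilla-like cells 6.92% of 9738 genes were past 2-fold (4.04% higher and 2.89% lower at P1), and of 8 genes tested Tgfbr3, Inhba and Fst were lower at P1 and none was higher, although Fst did not pass at a clustering resolution of 2.0 or with cells thinned to 1000 UMIs. Of all genes past 2-fold there, 58.3% were higher at P1, and 69.3% with TMM scaling, which moved the ratios by 0.15 and 0.17, with the same 3 genes of the set past 2-fold. Without shared barcodes no gene of the set was past 2-fold in the mesenchyme of both jaws, Tgfb2 and Fst were so in the epithelium, and Inhba and Fst in the papilla-like cells. The share of all genes past 2-fold without these barcodes is not given here, so these counts stand without a background.

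**Figure D3:**
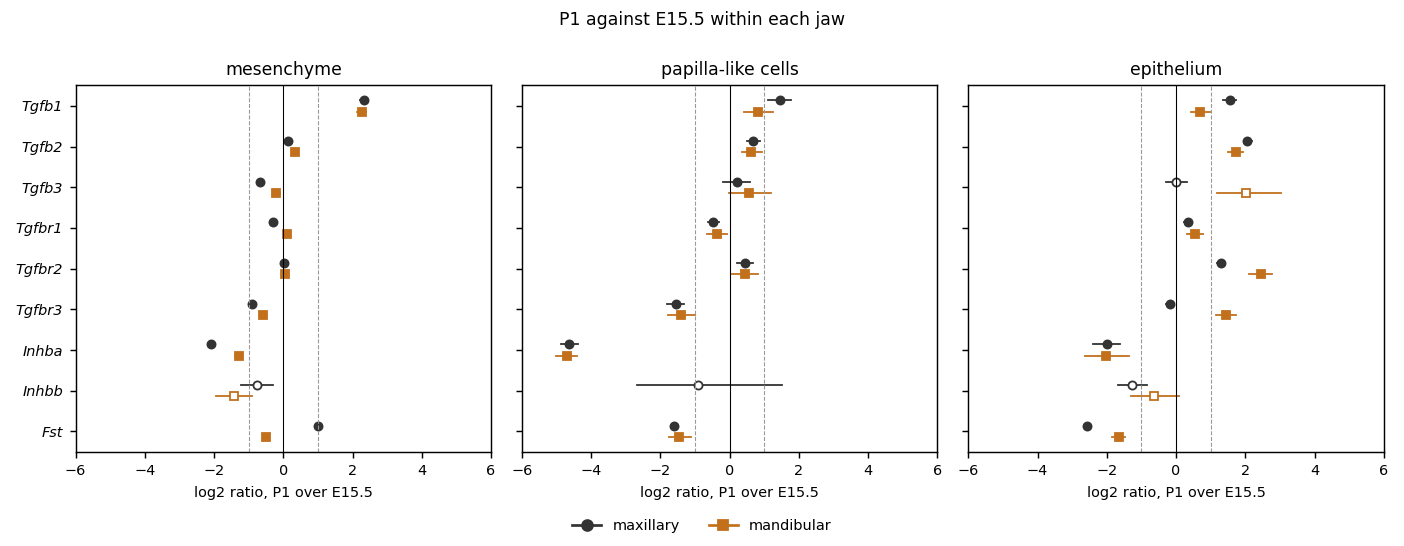
Log2 ratio of P1 over E15.5 for each gene within the maxilla (circles) and the mandible (squares) in mesenchyme, papilla-like cells and epithelium, with 95% counting intervals, dashed lines at 2-fold and open points for genes under the minimum level. Inhba lies at -4.63 and -4.71 in papilla-like cells and Tgfb1 at 2.34 and 2.26 in mesenchyme.

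Other genes of the pathway were set beside the same background. In the mesenchyme 25 of the 38 listed genes passed the minimum and 2 were past 2-fold (8%, against 6.52% of all genes), both inhibitors and both higher at P1. Bambi, a pseudoreceptor that dampens TGF-beta and activin signals, was 24.3 and 29.2 CPM at E15.5 and 254 and 271 at P1 (log2 ratios 3.39 and 3.22). Smad7, the inhibitory Smad, was 45.5 and 29.5 CPM at E15.5 and 111 and 83.8 at P1 (1.29 and 1.51). In the epithelium 4 of 25 were past 2-fold (16%, against 8.44%). Itgb6, a subunit of the integrin that frees latent TGF-beta, went from 6.59 and 9.54 CPM to 47.3 and 84.3 (log2 ratios 2.84 and 3.14). Bambi went from 14.1 and 88 CPM to 269 and 316 there (4.25 and 1.85), Ltbp3, which binds latent TGF-beta, was also higher (1.05 and 1.62), and its relative Ltbp4 was lower (-1.07 and -1.33). In papilla-like cells 3 of 24 were past 2-fold (12.5%, against 6.92%). Bambi (3.0 and 2.03) and the fibrillin Fbn2 (1.56 and 1.44) were higher at P1, and Thbs1, an activator of latent TGF-beta, was lower (-1.13 and -2.46). Without shared barcodes the maxillary ratios in the mesenchyme were 0.51 for Bambi and -0.10 for Smad7, and neither was past 2-fold in both jaws. In the epithelium Itgb6 (1.63) and Bambi (2.27) then stayed past 2-fold, and Ltbp3 (0.21) and Ltbp4 (-0.39) did not.

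Between epithelium and mesenchyme, a gene counted when both jaws of a stage showed it. At E15.5 18.5% of 10077 genes were past 2-fold (10.6% lower and 7.87% higher in epithelium), and of the 8 genes of the set tested Tgfb3 and Inhba were lower in epithelium, a share near that of all genes. The Inhba log2 ratios were -2.95 and -1.96. Fst was 1.49 in the maxilla and -0.22 in the mandible. Against papilla-like cells alone both Fst directions turned, with 221 CPM in epithelium against 396 in the maxilla and 99.4 against 73.9 in the mandible. The mandibular intervals overlapped. At P1 20% of 10191 genes were past 2-fold (11.9% lower and 8.13% higher), and of 8 tested Tgfb3, Inhba (-2.87 and -2.68) and Fst (-2.05 and -1.39) were lower in epithelium. Median log2 ratios of the 8 were -0.80 and -1.14 at E15.5 and -0.13 and 0.14 at P1, beside medians between -0.01 and 0.06 over all genes. At P1 the reference mattered as well. Against papilla-like cells alone none of these 3 passed. The Tgfb3 ratios were then -1.22 and -0.69, the Fst ratios -1.80 and 0.21, and Inhba was under 10 CPM on both sides. Tgfbr3 was instead higher in epithelium than in papilla-like cells (1.75 and 2.56). Without shared barcodes the maxillary Fst ratio was -0.22, and Tgfb3 and Inhba stayed past 2-fold. Of the pathway genes, 27 were tested at E15.5, with 3 higher and 9 lower in epithelium, and 28 at P1, with 3 higher and 8 lower. The activin receptors Acvr1b (1.99 and 1.72 at E15.5, 1.97 and 2.06 at P1) and Acvr2b (1.68 and 2.26, then 1.15 and 1.07) were higher in epithelium at both stages. So were the repressor Tgif1 at E15.5 (1.47 and 2.04) and Itgb6 at P1 (5.47 and 5.66). Lower in epithelium were the fibrillin Fbn2 (-3.17 and -3.66, then -3.58 and -3.78), Ltbp2 (-3.07 and -4.47) and the co-receptor Eng (-2.49 and -2.82) at E15.5, and Tgfbi, a matrix protein induced by TGF-beta (-3.48 and -3.37), and Fbn1 (-2.67 and -3.46) at P1.

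Between the jaws, maxilla against mandible, the mesenchyme gave 1.46% of 9339 genes past 2-fold in the same direction at both stages (0.75% higher and 0.707% lower in the maxilla), and 0 of the 8 genes of the set tested and 0 of the 25 pathway genes tested. A count of 0 in so small a set is near that share. Inhba was higher in the maxilla at E15.5 (log2 ratio 1.16) and less so at P1 (0.38). Fst had -0.56 at E15.5 and 0.92 at P1, and Tgfb1 differed little, with -0.09 and -0.01. The P1 ratios were -0.14 for Fst and -2.20 for Tgfb1 without shared barcodes. In papilla-like cells Inhba differed between the jaws by less than the counting error at both stages (-0.05 and 0.03). Fst in these cells was past 2-fold higher in the maxilla at both stages (396 against 73.9 CPM at E15.5, 131 against 27 at P1). The E15.5 mandibular class held 106 cells, and the maxillary stage ratio of Fst in papilla-like cells changed with the clustering resolution. The jaw of origin of most P1 maxillary papilla-like cells is in doubt, as they carry shared barcodes. In the whole mesenchyme without shared barcodes the Inhba ratio at P1 was 1.71, and Inhba then passed 2-fold at both stages.

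Within the P1 libraries, the mineralising cell classes were set beside the class next to them. The Dmp1- and Phex-led mesenchyme differed past 2-fold from papilla-like cells in 18.8% of 9545 genes (5.66% higher, 13.1% lower), and in 2 of the 7 genes of the set tested. Tgfb1 was higher, with 232 against 67 CPM in the maxilla (log2 ratio 1.80 [1.71, 1.88], 3.47-fold) and 237 against 65.4 in the mandible (1.86 [1.76, 1.95], 3.63-fold). Fst was lower, with 6.91 against 131 CPM and 4.57 against 27 (-4.24 and -2.56). Tgfb2 lay at the limit, with 248 against 124 CPM and 246 against 130 (1.0 and 0.92), and passed it with TMM (1.23 and 1.17) or median-of-ratios scaling. These scalings moved all ratios of this comparison up, by 0.23 and 0.25 and by 0.29 and 0.31, and the share of higher genes among those past 2-fold from 30.1% to 45.6% and 49.8%. In the maxilla 366 of the 381 Dmp1- and Phex-led cells carried shared barcodes, so agreement of the jaws may not be that of separate samples. The 15 cells without such barcodes, fewer than the 50 asked of a class, gave a Tgfb1 ratio of 0.98. Of 25 pathway genes, 3 were higher, the response gene Ccn2 (1.78 and 2.40), the repressor Skil (1.39 and 1.45) and Ltbp2 (1.31 and 3.14). Lower were 6, among them Tgfbi (-4.31 and -3.26), Fbn1 (-1.86 and -1.87) and Ltbp1 (-2.24 and -1.83).

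In the epithelium, ameloblast-like cells differed past 2-fold from dental epithelium-like cells in 20.2% of 9558 genes (5.92% higher, 14.2% lower). Of the 7 genes of the set tested, 4 were higher and 1 lower. Tgfbr2 was 384 against 89 CPM in the maxilla (log2 ratio 2.11, 4.31-fold) and 365 against 45.8 in the mandible (3.0, 7.98-fold). Tgfb3 was 33.4 against 4.5 CPM and 36.4 against 4.56 (2.89 and 2.99). Tgfb2, at 439 against 191 and 385 against 153 (1.20 and 1.34), and the co-receptor Tgfbr3, at 144 against 49.1 and 185 against 46.4 (1.55 and 1.99), were higher as well. The type I receptor Tgfbr1 was 97 against 63.5 CPM and 113 against 71.3 (0.61 and 0.67), under 2-fold. The ligand Tgfb1 was close in both classes, 81.3 against 68.9 and 82.2 against 60.8 (0.24 and 0.43). Fst was lower in ameloblast-like cells, with 8.13 against 22.1 CPM and 7.46 against 36.9 (-1.44 and -2.31). The median log2 ratio of the 7 genes was 1.20 in the maxilla and 1.34 in the mandible, beside -0.28 and -0.29 over all genes tested. TMM scaling moved all ratios here up by 0.21 and 0.34 and median-of-ratios scaling by 0.35 and 0.37, and the share of higher genes among those past 2-fold from 29.4% to 43.8% and 50.1%, while the same 5 genes of the set were past 2-fold. Without shared barcodes 13 of the 250 maxillary ameloblast-like cells were left, too few for a comparison in that jaw. As 94.8% of these cells carried shared barcodes, agreement of the jaws may not be that of separate samples. Of the 25 pathway genes tested, up to 3 past 2-fold are named in each direction, and their full number is not given here. Itgb6 (1.79 and 1.87), Ltbp3 (1.56 and 1.69) and Bambi (1.21 and 1.47) were higher. Ccn2 (-2.70 and -3.28), Ltbp2 (-1.94 and -2.82) and Ltbp1 (-1.25 and -1.06) were lower.

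**Figure D4:**
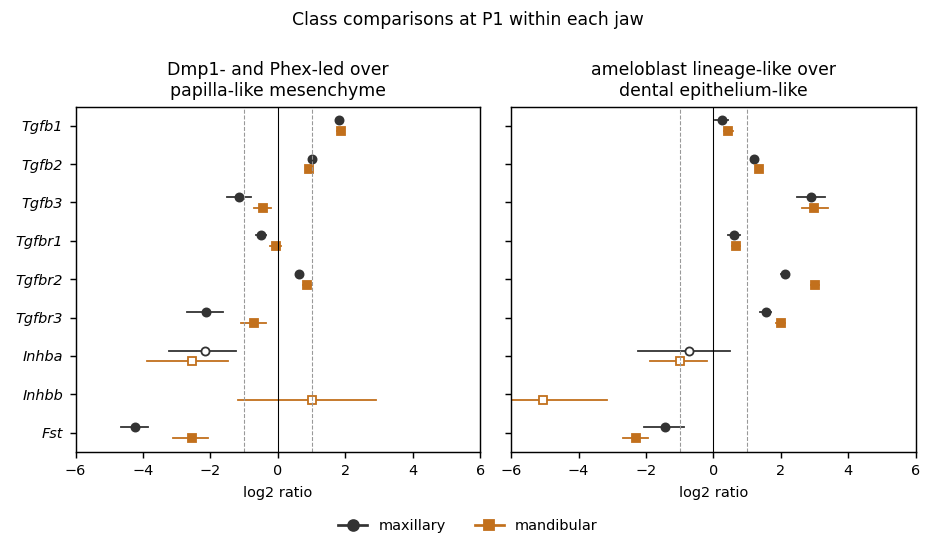
Log2 ratio at P1 of the Dmp1- and Phex-led over the papilla-like mesenchyme and of ameloblast-like over dental epithelium-like cells, in the maxilla (circles) and the mandible (squares), with 95% counting intervals cut at the axis edge, dashed lines at 2-fold and open points under the minimum level. Tgfb1 stands at 1.80 and 1.86 in the first comparison, and Tgfbr2 at 2.11 and 3.0 in the second.

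Other genes with a like pattern were sought over 66 units, each a cell class in a library, by the Pearson correlation of log2(CPM + 1) among 13171 candidate genes. The units share libraries and depth, so the values are a description. Nearest to Tgfb1 were Prcp (r = 0.843), Sgk3 (0.81) and Abca1 (0.804). Tgfb2 lay nearest to Klhl7 (0.886), Rbfox2 (0.862) and Zfp260 (0.861), and Tgfb3 to Sdc2 (0.893), Arhgef25 (0.887) and Adamts2 (0.872). For the receptors they were Osbpl9 (0.951), Cacul1 (0.946) and Atp6v1h (0.944) for Tgfbr1, Leprot (0.905), Rhob (0.888) and Cers2 (0.883) for Tgfbr2, and Lysmd2 (0.834), Lamb1 (0.831) and Tulp3 (0.83) for Tgfbr3. Inhba was most like Twist1 (0.869), a transcription factor of the mesenchyme, Ndnf (0.859) and Epha3 (0.857). Inhbb was most like Edar (0.733), the ectodysplasin receptor of epithelial placodes, Irx2 (0.733) and Plb1 (0.717), and Fst like Lsamp (0.819), Gpsm2 (0.771) and Col14a1 (0.758). Among the 9 genes themselves the highest values were 0.77 for Tgfb2 with Tgfb3 and 0.72 each for Tgfb3 with Inhba and Tgfbr1 with Tgfbr2.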

How the data were processed

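The authors deposited 1 matrix of UMI counts (genes by barcodes) for each library, made with Cell Ranger from 10x Genomics 3′ libraries aligned to mm10; the counts are whole and not normalized, with the default cell calling. The submitters' further cell filters were not applied here.

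Barcodes with at least 1000 UMIs were kept, and the 6690 barcodes of the P1 mandibular library also found in the P1 maxillary one were dropped. Each library was clustered alone (scanpy 1.11.5, leidenalg 0.10.2, igraph 0.11.9; 2000 variable genes, 40 components, 15 neighbours, resolution 1) without mitochondrial and ribosomal genes, the 9 genes and the 38 pathway genes. Unnamed cells were 3.64%, 4.21%, 0% and 8.8% of the E15.5 maxillary, E15.5 mandibular, P1 maxillary and P1 mandibular libraries. Doublets were not removed in the main analysis, because automatic calling marked 0, 1, 1 and 302 barcodes.

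A level is a class's summed UMIs of a gene per 1000000 UMIs, with an exact Poisson interval; ratios have exact conditional binomial intervals (scipy 1.17.1) and shares of cells Clopper-Pearson intervals. With 1 library per group no p-value was computed. Named genes were the 9, up to 3 pathway genes in each direction per comparison and the 3 most alike genes per member. Members and lists were chosen with earlier results of these data known, thresholds for naming clusters were set after their marker and leading genes were seen, and 3 class comparisons were added after values were seen. Gene positions are from GENCODE. The ratio and interval code was tested on simulated data. Scaling alternatives used edgeR 4.0.16 and DESeq2 1.42.0 factors.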

Additional observations from a re-analysis of the deposited data

Results flagged for a closer look

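For Fst and Tgfbr3 the ratio went one way in a library pair and the opposite way in the other, with 1 library each, so that the difference between the pairs was not tested. The Fst log2 ratio of P1 over E15.5 in the mesenchyme was 0.99 in the maxilla and -0.49 in the mandible. Between jaws, Fst in the mesenchyme had a log2 ratio of maxilla over mandible of -0.56 at E15.5 and 0.92 at P1. Without shared barcodes the P1 maxillary values became -0.07 between stages and -0.14 between jaws, so that neither pair of ratios went opposite ways, and without the follicle-like cluster of 288 cells the stage ratio was 0.38. At E15.5 the log2 ratio of epithelium over mesenchyme for Fst was 1.49 in the maxilla and -0.22 in the mandible. With papilla-like cells as the reference both directions turned (221 against 396 CPM in the maxilla, 99.4 against 73.9 in the mandible). Tgfbr3 in the epithelium had a log2 ratio of P1 over E15.5 of -0.17 in the maxilla and 1.44 in the mandible, where the E15.5 side was the single cluster of 143 cells.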

How the results depend on the processing

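Counts of genes past 2-fold and ratios were recomputed under 12 alternatives, not all of which applied to each. Ratios were recomputed under 11 of the alternatives, with 69 to 141 ratios under each. Of these 1411 ratios of the 9 genes, 1018 stayed inside the counting interval of the value reported, 391 moved out of it and 2, both of Fst in comparisons it had passed, changed direction. Counted over all 1411, genes under 2-fold and ratios near 0 included, the sign changed in 60. Of 178 recomputed counts, 156 stayed within 1.5 times.

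With shared barcodes left out of both P1 libraries, the genes of the set past 2-fold numbered 0 in place of 2 between stages in mesenchyme, 2 in place of 4 between stages in epithelium, 1 in place of 0 between jaws and 1 in place of 2 for the Dmp1- and Phex-led cells, and pathway genes 0, 2, 2 (stages in mesenchyme, stages in epithelium, jaws) and 3 for ameloblast-like cells; only 15 Dmp1- and Phex-led and 13 ameloblast-like cells were then left in the maxilla, so these last counts say little. With papilla-like cells for the mesenchyme, an alternative added after seeing the data, the set counted 1 between jaws and 1 between epithelium and mesenchyme at P1 (Tgfbr3, in place of Tgfb3, Inhba and Fst), and the pathway 4 at E15.5 and 7 at P1; the Fst ratio of epithelium over mesenchyme in the P1 mandible became 0.21. With cells thinned to 1000 UMIs the set counted 4 between epithelium and mesenchyme at E15.5, and the pathway 1 between stages in mesenchyme and 6 in papilla-like cells. The mean of single cells gave pathway counts of 1 between stages in mesenchyme and 1 between jaws. With no minimum level the pathway counted 1 between jaws, 8 between stages in papilla-like cells and 11 for ameloblast-like cells. Keeping shared barcodes in both libraries gave 5 in papilla-like cells. Resolution 0.5 gave 3 for ameloblast-like cells, and at resolution 2.0 the Fst stage ratio of maxillary papilla-like cells became 0.05. The cause of these changes was not tested, and the shares over all genes under those alternatives are not given here. Counts of the set and of the pathway under TMM and median-of-ratios scaling stayed within 1.5 times, but over all genes median-of-ratios scaling took those higher from 540 to 871 in the Dmp1- and Phex-led and from 566 to 931 in the ameloblast-like cells. Stage ratios were taken within each jaw, and no model over the jaw pairs was run. Inhbb was under the minimum level in each comparison at the main settings, and 143 cells limit the E15.5 mandibular epithelium.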
